A study of Mus musculus with 2 samples.

Results

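The BCL2 family decides whether a cell opens the outer membrane of its mitochondria and dies by apoptosis. It was followed here through 10 genes listed by symbol: the survival genes Bcl2, Bcl2l1, Mcl1 and Bcl2a1a, the effector genes Bax and Bak1, and the BH3-only genes Bcl2l11, Bbc3, Pmaip1 and Bid. Of these, 9 had a probe set among the 19505 genes measured, and each had 1 probe set. No probe set carried the symbol Bax in the annotation used, so Bax was not analysed here.

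Whole-transcript arrays were used on macrophages that had been grown from mouse bone marrow. The 2 samples were macrophages of the genotype LysM (+);MC4RTB/TB, called LysM(+), and of the genotype MC4RTB/TB, called TB/TB, with 1 array each. Both are labelled TB/TB for MC4R, the melanocortin 4 receptor, and so share that allele; the labels set them apart by LysM alone. As background, TB alleles of Mc4r are known to carry a cassette that stops transcription until Cre recombinase removes it, and the promoter of LysM, the gene Lyz2, is widely used to express Cre in myeloid cells; the labels spell out neither, give no age or sex, and do not say how many mice gave marrow. Marrow was cultured in medium with 10% serum, M-CSF (25 ng/mL) was given on day 0 and once more on day 3, and cells were used from day 5, per the labels' protocols. With 1 array per genotype there was no replicate error and no test could be run, and every difference below describes these 2 arrays only. The number of arrays limits the precision.

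Survival proteins of the family bind and hold back the other members. Effectors form pores in the mitochondrial membrane when they are released, and BH3-only proteins sense stress and either block the survival proteins or switch on the effectors. Macrophages depend on M-CSF for survival as well as growth, and their death is known to be controlled at this step.

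Values are log2 signals made by the authors with RMA, a method that corrects background and brings arrays to a common scale. Differences are LysM(+) minus TB/TB on that scale, and folds rest on reading it as log2. A gene was counted when its arrays lay at least 1.5-fold apart and the brighter of them was at or above 6.12, the median level of the named probe sets, called the floor. Background control probe sets ran from 3.09 to 6.81. Signal also depends on the probes, so levels are not compared between genes.

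Of the 9 measured members, 8 were above the floor on both arrays. Among these 8, 2 were at least 1.5-fold higher in LysM(+) macrophages, Bcl2 and Bak1, and 1 was at least 1.5-fold lower, Bcl2a1a. Over 10137 genes above the floor, 10.9% lay as far up and 5.16% as far down. The members past the fold came from opposite sides of the family, a survival gene and an effector gene up and a survival gene down. By any amount 6 of the 9 measured members were higher and 3 lower. The 6 included Bcl2l11, whose direction turned with the normalization. Over all genes 9612 of 19505 were higher by any amount, and over those above the floor 5790 of 10137. The median difference of the 9 was 0.29, beside -0.01 over all genes, and that of the 8 above the floor was 0.37, beside 0.07 over all genes above it.

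The same 3 members were counted with no floor, where 6.98% of all genes lay as far up and 5.51% as far down, and with the floor at the highest background control, where these shares were 11.4% and 4.27%. At 2-fold 0 members were counted, beside 3.25% of genes above the floor higher and 0.858% lower. At a smaller difference of 0.32 on the log2 scale, Bcl2, Bcl2l1, Bak1 and Pmaip1 were counted as higher, beside 25.5% of genes, and Mcl1 and Bcl2a1a as lower, beside 15.0% of genes.

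**Figure D1:**
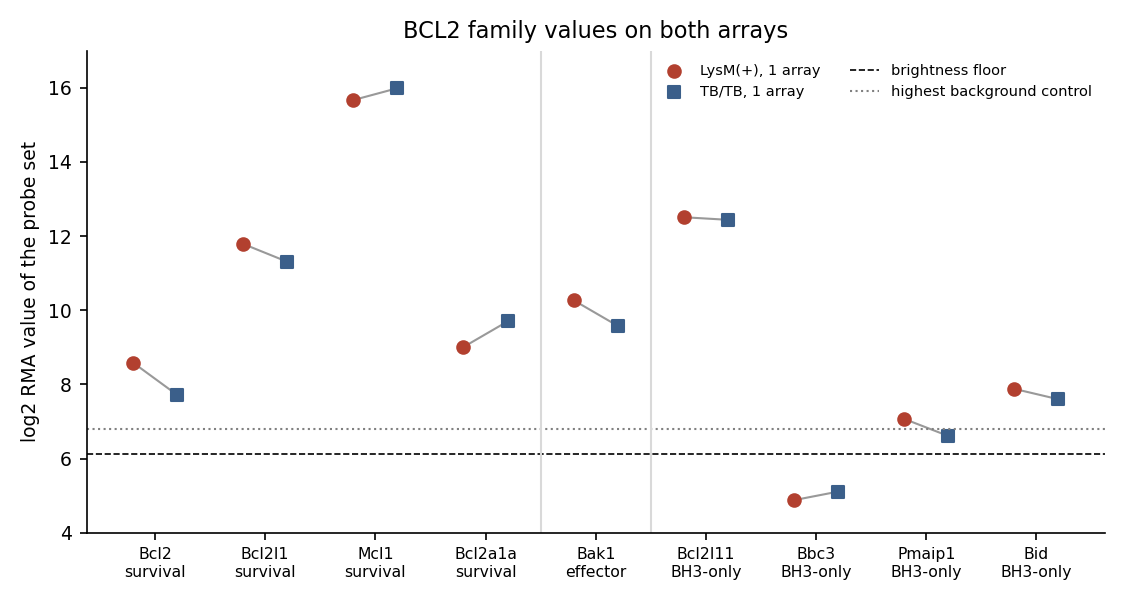
Log2 RMA value of each measured member on the LysM(+) array (circles) and the TB/TB array (squares), grouped by role; each point is 1 array and lines join the pair of a gene. Bcl2 and Bak1 slope down to TB/TB and Bcl2a1a slopes up, while Bbc3 lies under the floor (dashed, 6.12) and Pmaip1 crosses the highest background control (dotted, 6.81).

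The survival genes split evenly. Bcl2, the founding survival gene, had a log2 value of 8.59 in LysM(+) macrophages, against 7.72 in TB/TB macrophages, a difference of 0.87 or 1.82-fold. It was the member with the largest difference in either direction, and 4.63% of genes above the floor were at least as far up. Bcl2l1, which encodes BCL-XL, stood at 11.79 in LysM(+) and 11.31 in TB/TB, a difference of 0.47 that did not reach 1.5-fold. Mcl1, which encodes a short-lived survival protein, went the other way with 15.67 in LysM(+) and 15.99 in TB/TB. Its difference of -0.33 was also short of 1.5-fold. Bcl2a1a had values of 9.01 in LysM(+) macrophages and 9.70 in TB/TB macrophages, a difference of -0.69 or 1.61-fold lower. As many as 3.39% of genes above the floor were at least as far down as Bcl2a1a. The gap between Bcl2 and Bcl2a1a differences was 1.55 on the log2 scale, and the median of the 4 survival genes was 0.07, the same as over all genes above the floor.

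The sequence just before the start site of Bcl2 is shown because Bcl2 is known as a target of cAMP signalling, the pathway to which MC4R couples. It comes from the RefSeq promoter table, build GRCm38.p6, chr1:106714291-106714440 on the minus strand. The capitals mark TGACG, the core of a cAMP response element. These 5 letters stood in 20.8% of all 32851 windows around start sites, and also in windows of Mcl1, Bbc3 and the Bcl2a1 copies. The part of the motif or of cAMP signalling in the Bcl2 difference was not tested.
Bcl2: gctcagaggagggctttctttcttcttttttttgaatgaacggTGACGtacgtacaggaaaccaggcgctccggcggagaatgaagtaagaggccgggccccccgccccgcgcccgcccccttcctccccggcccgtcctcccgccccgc

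In mouse Bcl2a1 exists as several near-identical copies on chromosome 9, so Bcl2a1a cannot be read alone. Bcl2a1b had 10.45 in LysM(+) and 10.51 in TB/TB, a difference of -0.06. Bcl2a1d had 8.76 in LysM(+) and 8.67 in TB/TB, a difference of 0.08. Bcl2a1c had 7.26 in LysM(+) and 7.51 in TB/TB, a difference of -0.25. Bcl2a1a was thus the sole copy past 1.5-fold of 4, and the median difference of the copies was -0.16. Probes for one copy can bind RNA of another, and the part of such sharing in these values was not tested; none of the copies shared its pair of values with another gene.

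The copies also hold a nearly alike stretch in front of their start sites. A stretch of 104 bases upstream is printed for each to show this, from GRCm38.p6: Bcl2a1a at chr9:88956816-88956919 and Bcl2a1b at chr9:89199125-89199228, both on the plus strand, Bcl2a1c at chr9:114329921-114330024 on the plus strand and Bcl2a1d at chr9:88731851-88731954 on the minus strand. Capitals mark GAGGAAGT, a site type bound by the macrophage factor PU.1, and TGACG.
Bcl2a1a: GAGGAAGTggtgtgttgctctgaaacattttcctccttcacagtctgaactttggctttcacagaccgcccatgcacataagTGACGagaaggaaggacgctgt
Bcl2a1b: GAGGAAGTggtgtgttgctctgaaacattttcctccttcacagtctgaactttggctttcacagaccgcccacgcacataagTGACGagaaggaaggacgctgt
Bcl2a1c: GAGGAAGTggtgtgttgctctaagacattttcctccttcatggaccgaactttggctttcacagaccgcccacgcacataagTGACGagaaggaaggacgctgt
Bcl2a1d: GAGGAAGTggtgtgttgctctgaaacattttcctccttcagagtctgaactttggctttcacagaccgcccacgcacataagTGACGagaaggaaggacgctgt

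Over this stretch Bcl2a1a and Bcl2a1b differed at 1 base and were 99% identical, Bcl2a1a and Bcl2a1d differed at 2, and Bcl2a1a and Bcl2a1c differed at 7 and were 93.3% identical. The stretch was picked for being shared and cut to begin at GAGGAAGT, so that motif is in each by choice. It ends 0 bases before the start site of Bcl2a1a and Bcl2a1d, 44 before that of Bcl2a1b and 110 before that of Bcl2a1c. TGACG also stands in all 4 copies, whose differences ran from -0.69 to 0.08. The part of the motifs in these differences was not tested.

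Bak1 was the effector measured. Its product sits in the mitochondrial membrane and forms pores there. Bak1 had 10.27 in LysM(+) macrophages, against 9.58 in TB/TB macrophages, a difference of 0.70 or 1.62-fold higher. Among genes above the floor, 7.66% were at least as far up. Its start region holds GAGGAAGT on the opposite strand, written as ACTTCCTC in capitals here (GRCm38.p6, chr17:27028628-27028777, minus strand). The region is shown because the same motif stands before Bcl2a1a, which differed in the other direction. The part of the motif in either difference was not tested.
Bak1: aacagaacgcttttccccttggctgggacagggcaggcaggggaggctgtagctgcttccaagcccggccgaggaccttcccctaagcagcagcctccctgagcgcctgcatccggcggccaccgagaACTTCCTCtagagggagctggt

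None of the 4 BH3-only genes was counted (0 genes); 3 of them were above the floor, where 16.1% of all genes were counted in either direction, so a count of 0 among 3 genes says little. Bcl2l11, which encodes BIM and responds to loss of growth factors, had 12.51 in LysM(+) and 12.44 in TB/TB, a difference of 0.07, and after quantile normalization that difference was -0.007, so it has no settled direction. Bid, whose protein links death receptors to mitochondria once caspase-8 cuts it, had 7.88 in LysM(+) and 7.60 in TB/TB, a difference of 0.29. Pmaip1, which encodes NOXA, a partner of MCL1 and a p53 target, had 7.07 in LysM(+) and 6.61 in TB/TB, a difference of 0.45. The TB/TB value of Pmaip1 lay within the range of the background controls, so that difference is not exact. In the RefSeq gene table Pmaip1 and Mc4r are neighbours on chromosome 18 with 0 protein-coding genes between them. Both genotypes carry the same label for MC4R, and the labels do not say whether the locus differed between these cells. Any part of the locus in the Pmaip1 difference was not tested. Bbc3, which encodes PUMA, another p53 target, had 4.88 in LysM(+) and 5.11 in TB/TB, under the floor and within the background range on both arrays, so it was not distinguishable from background.

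Set by class, the 5 measured effector and BH3-only genes had a median difference of 0.29, with 4 of 5 higher by any amount, and the 4 survival genes one of 0.07, with 2 higher and 2 lower. The survival median minus the other was -0.21. Over genes above the floor, 5790 of 10137 were higher by any amount. The 4 higher effector and BH3-only genes included Bcl2l11, whose direction turned with the normalization. They also included Pmaip1, whose TB/TB value lay within the background range. The classes overlapped: the survival genes ran from -0.69 to 0.87 and the effector and BH3-only genes from -0.23 to 0.70. No order of the classes can be read from 2 arrays.

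**Figure D2:**
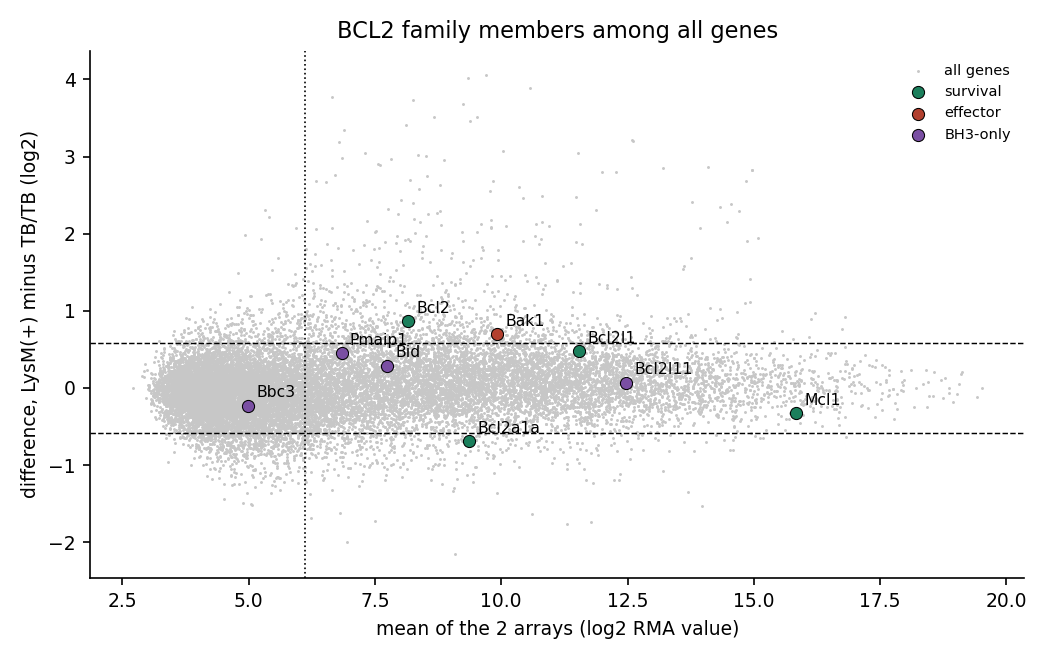
Difference between LysM(+) and TB/TB (log2, vertical) against the mean of the 2 arrays (log2, horizontal) for all 19505 genes (grey) and the 9 measured members, coloured by role; dashed lines mark 1.5-fold and the dotted line the floor. Bcl2 and Bak1 lie above the upper dashed line and Bcl2a1a below the lower one, all inside the cloud of other genes.

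None of the other family genes reached 1.5-fold (0 genes). Of 17 other genes of the family or with a BH3-like stretch, all were measured, 13 reached the floor, 0 were past 1.5-fold upward and 0 downward, and their median difference was -0.06. Over all genes above the floor 16.1% were counted, and nothing particular to the list can be read from 0 of 13. Among the survival relatives, Bcl2l2, which encodes BCL-W, had 7.93 in LysM(+) and 8.15 in TB/TB, and Bcl2l10 was under the floor on both arrays, with a difference of -0.30. Bok, a relative of the effectors, had 6.18 in LysM(+) and 6.05 in TB/TB, within the background range. Of the BH3-only genes, Bad, which growth factor signalling restrains, had 6.72 in LysM(+) and 6.43 in TB/TB, also within that range, while Bmf had 7.08 in LysM(+) and 7.33 in TB/TB. Hrk and Bik were within the background range on both arrays, with differences of 0.05 and 0.23.

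Bcl2l13 had the largest difference upward among these 17 genes, at 0.39, with 7.98 in LysM(+) and 7.59 in TB/TB. Bnip3 and Bnip3l, which mark mitochondria for removal, differed by -0.34 and 0.07, and Becn1, an autophagy gene that survival proteins bind, by -0.15. Bcl2l12, Bcl2l14 and Bcl2l15 were under the floor on both arrays, with differences of 0.01, -0.34 and -0.11.

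**Figure D3:**
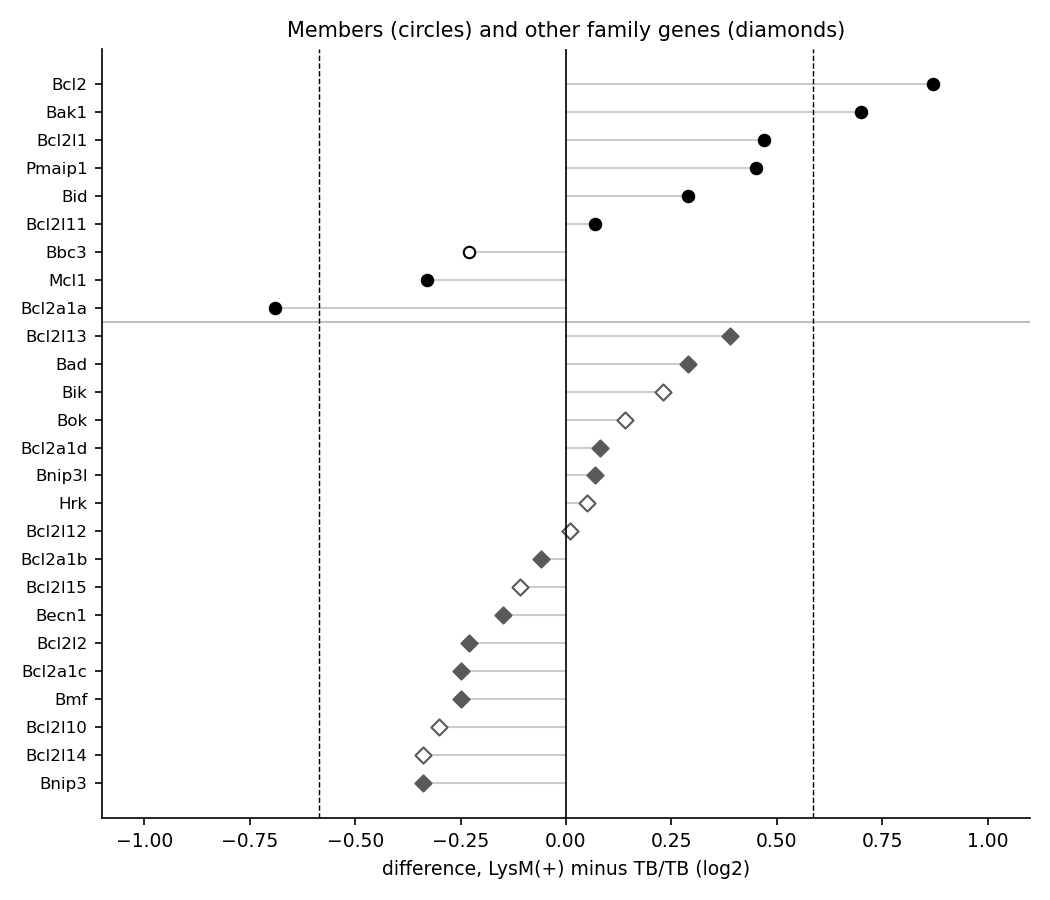
Difference between LysM(+) and TB/TB (log2) for each measured member (circles) and each of 17 other family genes (diamonds), ordered by size; filled symbols reached the floor on both arrays and dashed lines mark 1.5-fold. Only Bcl2, Bak1 and Bcl2a1a lie past a dashed line.

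Around the family, 84 genes of 7 pathway lists were followed, of which 78 were measured and 70 reached the floor. Of these 70, 7 were past 1.5-fold upward and 6 downward, or 18.6% in all, beside 16.1% of all genes above the floor. The median difference of the 78 was -0.02. The pathway genes past the fold thus made up a share near that of all genes.

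Downstream of the pore, Cycs, the cytochrome c that pores release, was 1.87-fold higher, with 13.73 in LysM(+) and 12.83 in TB/TB. It was the sole gene past the fold of 10 measured for the apoptosome and caspases, a list with a median difference of -0.02. That made 11.1% of the list's genes above the floor, beside 16.1% of all genes above it. Inhibitor of apoptosis genes had a median difference of -0.34 over 7 genes, with 6 lower by any amount, beside 4347 of 10137 genes above the floor. Of the 7, Naip5, known also as a sensor of bacterial flagellin, was past the fold at 2.36-fold lower, with 11.19 in LysM(+) and 12.43 in TB/TB. That made 14.3% of the list, beside 16.1% of all genes above the floor. Naip genes are similar in sequence and their probes can share signal, so the lower Naip2, Naip5 and Naip6 need not count separately. Birc5, which encodes survivin, belongs to the same protein family but was listed with the cell division genes; it went the other way with a difference of 1.27, or 2.42-fold higher, and its TB/TB value lay within the background range. Vdac1, a channel of the outer mitochondrial membrane, was 1.70-fold higher, with 11.20 in LysM(+) and 10.44 in TB/TB.

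On the side of turnover, Fbxw7, part of a ligase that marks MCL1 and MYC for destruction, was 2.30-fold lower, with 7.11 in LysM(+) and 8.31 in TB/TB. Vdac1 and Fbxw7 were the genes past the fold among 13 partners and turnover genes, whose median difference was 0.06. They made up 16.7% of the list's genes above the floor, beside 16.1% of all genes above it. In the death receptor arm, which acts through Bid, 8 of 9 measured genes reached the floor. Of these, 2 were past the fold, beside 16.1% of all genes above the floor. Traf2, an adaptor of TNF receptors, had 8.30 in LysM(+) and 9.14 in TB/TB, 1.79-fold lower. Fas, a death receptor, was 1.70-fold lower, but its value in LysM(+) lay within the background range, against 7.26 in TB/TB, so that fold is not exact. The median difference of this arm was 0.13.

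Targets and regulators of p53, the arm that acts on Pmaip1 and Bbc3, had a median difference of -0.06 over 12 measured genes. Of these 12, 8 reached the floor and 0 were past the fold in either direction, beside 16.1% of all genes above the floor. A count of 0 among 8 genes says little. Trp53 itself was not analysed here. All 16 measured transcription factors known to act on family genes reached the floor. Of these, 3 were past the fold upward and 1 downward, beside 10.9% and 5.16% of all genes above the floor. With so few genes these counts say little, and the median difference was 0.06. Myc, which drives growth and can sensitise cells to death, was 3.07-fold higher, with 12.18 in LysM(+) and 10.57 in TB/TB. The repressor gene Bcl6 was 2.05-fold higher, with 10.98 in LysM(+) and 9.94 in TB/TB, and E2f1 was 1.80-fold higher, with 8.51 in LysM(+) and 7.66 in TB/TB. Foxo3, a factor known to switch on Bcl2l11 and Bbc3 when growth factors are withdrawn, was 1.73-fold lower, with 7.06 in LysM(+) and 7.85 in TB/TB.

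For other forms of cell death, pyroptosis and necroptosis, 11 genes were measured and had a median difference of -0.24. Of these, 10 reached the floor and 3 were past the fold, beside 16.1% of all genes above the floor. Ripk3, a kinase of necroptosis, was 1.85-fold higher with 9.29 in LysM(+) and 8.40 in TB/TB. The inflammasome adaptor gene Pycard was 1.61-fold higher with 10.91 in LysM(+) and 10.22 in TB/TB. Zbp1, a nucleic acid sensor upstream of Ripk3, was 1.96-fold lower with 7.15 in LysM(+) and 8.12 in TB/TB.

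**Figure D4:**
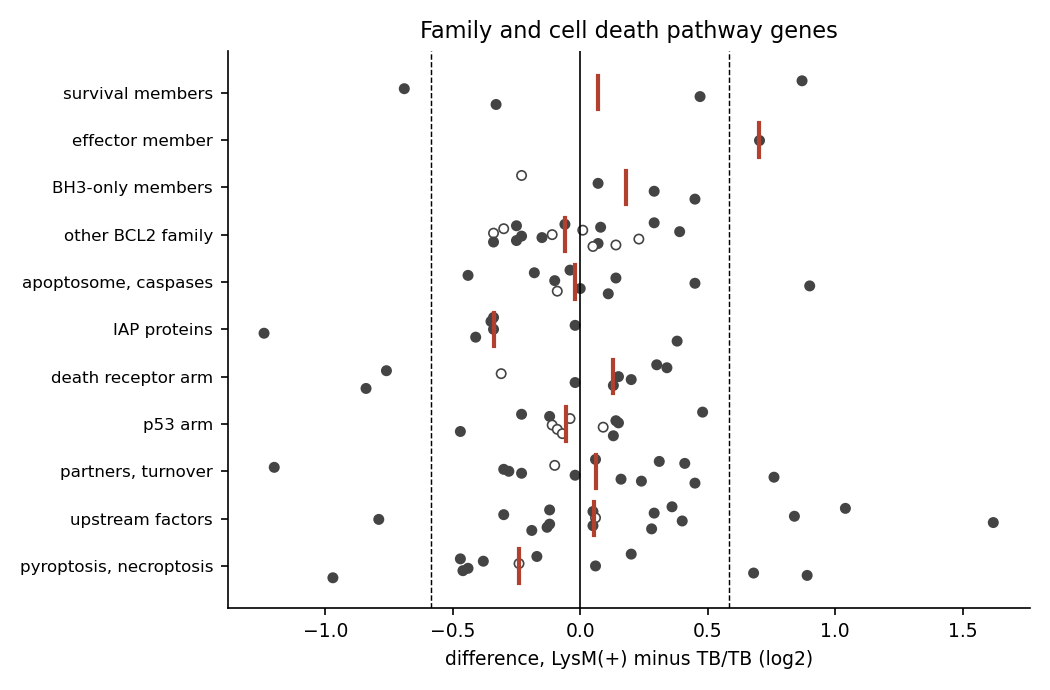
Difference between LysM(+) and TB/TB (log2) for every measured gene of the family classes and of 7 pathway lists; each point is a gene, filled where it was above the floor on both arrays, red bars are list medians and dashed lines mark 1.5-fold. Most points lie between the dashed lines, and Myc at 1.62 and Naip5 at -1.24 are farthest out.

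Motifs were searched on both strands in windows from 250 bases before to 50 after a start site. Of 12 family genes with a window, members and Bcl2a1 copies together, there were 17 windows. Pmaip1 lies on chromosome 18, whose windows were left out, so it was not searched for any motif. TGACG stood in 7 of the 17, in Bcl2, Mcl1, Bbc3 and the 4 Bcl2a1 copies, beside 20.8% of all 32851 windows. With near-identical copies among the 7, that count cannot be set directly against the share. GAGGAAGT stood in 5 of the 17, in Bak1 and the Bcl2a1 copies, beside 3.20% of all windows; the copies are near-identical and do not count separately. TTTNNCGC, a form of the E2F site, stood in 1 window, of Bcl2l1, beside 5.17% of all windows. The NF-kB motif stood in windows of Bcl2l1 and Bbc3 beside 4.51%, with overlapping matches in Bbc3, and the p53 decamer in that of Bax beside 8.36%. Genes with TGACG included Bcl2, which was higher, and Bcl2a1a, which was lower. The part of any of these motifs in the differences was not tested.

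Cell division genes and neutrophil markers also differed between the arrays. All 19 measured cell division genes were past the fold upward, beside 10.9% of all genes above the floor, with a median difference of 1.93. Of these, 11 were above the background controls on both arrays, and the folds of the others, among them Ccna2, Cdk1 and Bub1, are not exact. The part of cell division in the differences of Bcl2, Bak1 and Bcl2a1a was not tested. Macrophage markers were bright on both arrays, with 8 of 8 measured above the background controls, values of 12.41 to 18.86 in LysM(+) and 12.98 to 19.04 in TB/TB, and a median difference of -0.19. Neutrophil markers, which matter because neutrophils express Bcl2a1 copies, had a median difference of 0.51 over 11 measured. Of these, 10 reached the floor and 5 were past the fold upward, beside 10.9% of all genes above the floor. The 5 were Ltf, Retnlg, Elane, Mmp8 and Cxcr2. Cxcr2 lay within the background range on both arrays and Elane and Retnlg did so in TB/TB, while Mpo and Csf3r, chosen with their values known, went the other way with differences of -0.30 and -0.57. The log2 values of all 11 measured neutrophil markers summed to 112.31 in LysM(+) and 106.36 in TB/TB, while Bcl2a1a was lower in LysM(+). Such a sum is not a total of signal, and the part of these markers was not tested. Lymphocytes are known for high Bcl2. All 6 B cell markers measured lay within the background range on both arrays. Of 7 T cell markers 2, Cd4 and Cd247, were above the background controls on both arrays, with the CD3 genes Cd3d, Cd3e and Cd3g under the floor. In the 6 other marker lists no gene was past the fold except Col1a2, a fibroblast gene, at 1.52-fold lower. In bulk RNA, more cells of a type and more RNA per cell cannot be told apart.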

How the data were processed

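The values, deposited on a log2 scale with 1 value per probe set, came from RMA, which the authors ran, per the submitters' processing notes, in Affymetrix Expression Console; no version is named there. The log base was read from the method's name. Values reached 19.5, above the usual range of that method, and another transformation on top of it is possible. Of 28846 probe sets, 19572 carried 1 gene symbol, and Entrez IDs tied all of these to RefSeq symbols of GRCm38.p6. They covered 19505 genes; 55 had several probe sets, which were averaged. Differences and counts were computed in Python 3.11.15 with pandas 2.3.3, and the counting was tested on simulated data. The genes named are the members, the other family genes, and the genes of each list past 1.5-fold and the floor. Members and lists were chosen with earlier results of these data known. Promoter windows came from RefSeq; chromosome 18 windows were left out. Alternatives were centring, quantile normalization, loess (statsmodels 0.14.6, span 0.4), the brightest probe set, other floors and other folds. A planned comparison of member proteins was not run.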

Additional observations from a re-analysis of the deposited data

How the results depend on the processing

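Bcl2 and Bak1 higher and Bcl2a1a lower were counted under centring, quantile normalization, loess, the brightest probe set, no floor and a floor at the highest background control. Over the scalings, Bcl2 ran from 0.82 to 0.87, Bak1 from 0.62 to 0.70 and Bcl2a1a from -0.76 to -0.68. At 2-fold, 0 members were higher and 0 lower, and 2 pathway genes were higher and 2 lower. At the smaller difference of 0.32, 4 members were higher and 2 lower; 1 other family gene was higher and 1 lower, and 15 pathway genes were higher and 16 lower. These counts follow from the fold itself. Over the fewer genes reaching the highest background control the pathway median was 0.05, against -0.02 over all measured, the member median 0.37 against 0.29, the other family median -0.15 against -0.06 and survival minus the other members -0.30 against -0.21. The difference of Bcl2l11 was -0.007 after quantile normalization, and the survival median was 0.005; the cause was not tested. The median over all genes stayed between -0.0062 and 0.02. No paired analysis was possible because each genotype has 1 array, and no array could be left out. Signal over background limits Bbc3 and Pmaip1 among the members, and also Fas, several other family genes, 8 of the 19 cell division genes and 4 of the 11 neutrophil markers.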
